A study of Rattus norvegicus with 2 samples.

Results

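The cytochrome P450 genes of the rat Cyp3a, Cyp2b and Cyp2a families, with Por, were followed in the liver of rats fed a choline-deficient diet (CDD). They were taken as all genes on an Agilent rat array whose name there starts with Cyp3a, Cyp2b or Cyp2a, plus Por. This gave 15 of 33719 gene names, with 20 of the 41012 distinct probes. Of these, 17 probes for 13 genes were well above background on both arrays in at least 1 diet and entered the test. The prefix also took in Cyp2ab1, which belongs to another subfamily and did not pass that filter. Liver total RNA of rats fed CDD for 10 days was compared with liver total RNA of rats on the control diet for the same time. All were Wistar rats (spelled Wister in the labels) of 7 weeks, and their sex is not given in the sources used here. Both RNAs were hybridised together on each of 2 two-colour arrays, with the dyes swapped: CDD was labelled with Cy5 for array 1 and with Cy3 for array 2. The labels mention 4 CDD rats but do not say whether the arrays held different rats or the same extracts, so the p-values reflect no more than how these arrays differ, and that spread may be technical.

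Cytochromes P450 are heme enzymes of the endoplasmic reticulum that oxidise drugs, steroids and other lipids, and they receive electrons from NADPH through the reductase encoded by Por. In rat liver, Cyp3a and Cyp2b genes are known as targets of the nuclear receptors PXR (Nr1i2) and CAR (Nr1i3), which bind DNA together with RXR, and phenobarbital induces Cyp2b1 and Cyp2b2 strongly. Cyp3a2, Cyp3a18 and Cyp2a2 are known as male-predominant in adult rats, and Cyp2a1 and Cyp3a9 as female-predominant.

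Members of each family lie close together in the genome and resemble each other in sequence, so probes of similar pairs are shown first. The Cyp2a1 probe (chr1:82015056-82015115 in rn4, the rat build of the array files) and the Cyp2a2 probe (chr1:82060952-82061011) agreed at 51 of 60 bases. The Cyp3a18 probe (chr12:9087179-9087238) and the Cyp3a62 probe, which the files leave unmapped, agreed at 41 of 52 overlapping bases. The Cyp2b12 probe (chr1:81790847-81790906) and the brighter Cyp2b21 probe (chr1:81581501-81581560) agreed at 39 of 44 overlapping bases. They are given as in the array files, 5′ to 3′, with the bases that differ within the overlap in capitals.
Cyp2a1 probe: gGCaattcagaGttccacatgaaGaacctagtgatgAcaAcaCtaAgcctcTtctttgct
Cyp2a2 probe: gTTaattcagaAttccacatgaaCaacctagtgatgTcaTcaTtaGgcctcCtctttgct
Cyp3a18 probe: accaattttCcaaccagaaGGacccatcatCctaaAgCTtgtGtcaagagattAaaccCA
Cyp3a62 probe: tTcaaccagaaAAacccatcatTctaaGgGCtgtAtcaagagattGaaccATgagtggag
Cyp2b12 probe: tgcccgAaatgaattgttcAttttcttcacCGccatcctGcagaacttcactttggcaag
Cyp2b21 probe: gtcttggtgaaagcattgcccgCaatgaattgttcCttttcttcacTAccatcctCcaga
No member probe shared a run of 20 bases with any other probe of the array. Cross-binding to transcripts of paralogs was not measured. By the transcripts that the array files list, the Cyp2b12 probe reports Cyp2b12 and Cyp2b15, and 3 of the 4 Cyp2b2 probes report Cyp2b1 as well as Cyp2b2. Positions within exons or untranslated regions were not looked up, since no rn4 annotation was used here.

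Upstream sequence is shown for the Cyp3a genes whose probes were lower in CDD liver. The windows are the 250 bases before each gene start, from RefSeq on the build GRCr8, written on the gene's own strand. They were searched on both strands for the hexamer AGTTCA in 2 direct copies with any 3 bases between them, a repeat of the kind to which PXR is known to bind in rat Cyp3a promoters, and its match is in capitals. It reads on the reverse strand in both windows that hold it, from base 131 to base 117 before the Cyp3a2 start and from base 144 to base 130 before the Cyp3a23-3a1 start.
Cyp3a2 (chr12:14343858-14344107, minus strand): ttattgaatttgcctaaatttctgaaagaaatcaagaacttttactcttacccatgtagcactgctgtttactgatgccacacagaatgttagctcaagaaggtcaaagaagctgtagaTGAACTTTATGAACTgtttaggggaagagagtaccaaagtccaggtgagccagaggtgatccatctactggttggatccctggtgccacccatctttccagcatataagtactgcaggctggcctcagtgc
Cyp3a23-3a1 (chr12:14398804-14399053, minus strand): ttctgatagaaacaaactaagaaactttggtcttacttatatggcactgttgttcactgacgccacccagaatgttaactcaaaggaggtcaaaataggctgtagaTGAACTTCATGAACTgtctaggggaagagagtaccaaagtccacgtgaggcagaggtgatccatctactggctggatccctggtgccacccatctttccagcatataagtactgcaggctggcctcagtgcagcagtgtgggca
Cyp3a18 (chr12:13994062-13994311, plus strand): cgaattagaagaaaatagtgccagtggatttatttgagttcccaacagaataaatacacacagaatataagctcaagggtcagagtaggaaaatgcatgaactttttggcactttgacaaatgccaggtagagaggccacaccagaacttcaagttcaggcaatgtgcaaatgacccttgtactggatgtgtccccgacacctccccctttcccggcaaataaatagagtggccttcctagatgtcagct
Of 33360 distinct upstream windows in the table, only these 2 (0.006%) held the repeat with exactly these letters. The repeat was chosen from what is known of rat Cyp3a promoters, so finding it in them was not a test. The window of Cyp3a18 held AGTTCA 2 times without that spacing, a hexamer found in 12.2% of the windows. Cyp3a62 and Cyp3a9 each held the hexamer 1 time. The hexamer AGGTCA in 2 direct copies with any 4 bases between them was found in 1 window (0.003%) and in none of the member windows. Only exact letters within 250 bases were searched, so this absence says nothing about imperfect copies or sites further upstream. Windows were compared at their best offset without gaps, so an inserted or deleted base lowers the share, and these shares can understate likeness. Compared so, the Cyp3a2 and Cyp3a23-3a1 windows agreed at 165 of 237 overlapping bases (69.6%), and those of Cyp3a2 and Cyp3a18 at 94 of 246 (38.2%). The windows of Cyp2b1 and Cyp2b2 agreed at 225 of 233 bases (96.6%). The windows of Cyp2a2 and Cyp2b15 were not analysed here. A match describes the letters and does not show binding.

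The data were normalised log2 intensities of each probe in each dye, and ratios are given as log2 of CDD over control. Of the spots for genes, 62.9% and 53.5% were well above background for CDD on arrays 1 and 2, against 54.2% and 63.2% for control, and no spot was saturated. All 9 hepatocyte markers looked for in this liver RNA (Alb, Apob, Hnf4a and others) passed the filter. Over all 22369 probes tested, the median log2 ratio was 0.01 on array 1 and -0.01 on array 2, and the ratios of the arrays correlated with Pearson r = 0.54 across probes, which are not replicates of each other. With 2 arrays, the precision of every value is limited.

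Most member ratios lay below 0, that is, lower in CDD liver, and the largest differences were those of Cyp3a2 and Cyp3a18. In limma's test with Benjamini-Hochberg adjustment over all probes, 3 of the 17 tested member probes were lower at an adjusted p under 0.05 (Cyp3a2, Cyp3a18 and Cyp2b15), against 3.63% of all probes. None was higher, against 3.54% of all probes. The ratio was below 0 on each array for 13 of the 17 probes, against 27.1% of all probes and 36 of 52 probes of the other P450 genes. Only the Cyp3a62 probe was above 0 on each array, and 3 probes had opposite signs. The median log2 ratio of the 17 probes was -0.25 (-0.30 on array 1 and -0.17 on array 2). By size alone, 1 of the 17 probes, that of Cyp3a18, was at least 1.5-fold lower on each array, against 0.438% of all probes, and none was as much higher, against 0.778%. In bulk RNA, fewer cells of a type and less RNA per cell cannot be told apart. The calls depend on the normalisation: with each array centred on its median in place of loess, limma called no probe of the whole array (26 had an unadjusted p under 0.05), 10 of the 17 member probes lay below 0 and 12 below the median of all probes, which that centring placed at 0.08.

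**Figure D1:**
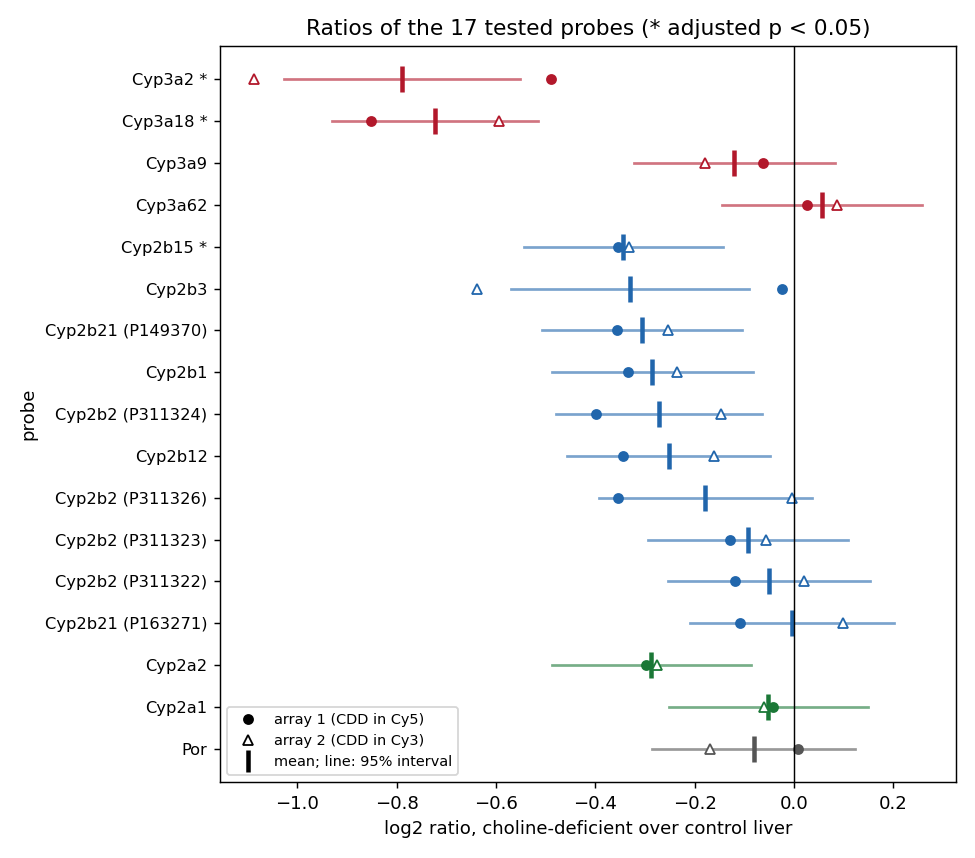
Log2 ratio of CDD over control liver (x axis) for the 17 tested probes (rows), with array 1 as filled circles, array 2 as open triangles, the mean as a thick bar and limma's 95% interval as a line. Cyp3a2 and Cyp3a18 lie furthest to the left, and Cyp3a62 is the only probe with both arrays to the right of 0.

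Cyp3a2, a testosterone and drug hydroxylase, had a normalised log2 intensity of 16.20 and 15.73 in CDD liver on arrays 1 and 2, against 16.69 and 16.82 in control liver. Both CDD values were below both control values, and the gap was wider on array 2. The log2 ratio was -0.49 on array 1 and -1.09 on array 2, with a mean of -0.79 ± 0.42 (SD, n = 2 arrays), or 1.73-fold lower in CDD (95% interval of the log2 ratio -1.03 to -0.55, limma adjusted p = 4.48e-05). Both array ratios lie outside that interval. Its width comes mostly from the spread pooled over all probes and understates how the arrays differ here. With an intensity trend in limma's test, the adjusted p was 0.00131. The Cyp3a2 probe lies at chr12:9517280-9517339 in rn4. It is among the 100 brightest probes tested, whose log2 ratios had a median SD between the arrays of 0.34, against 0.10 over all probes, and whose median ratio was 0.19 on array 1 and -0.34 on array 2. Set against that median, Cyp3a2 was at -0.68 on array 1 and -0.75 on array 2, a description chosen after its values were seen.

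Cyp3a18, another steroid-hydroxylating member, had a log2 intensity of 13.82 and 13.94 in CDD liver, against 14.67 and 14.53 in control liver. The diets did not overlap, and the gap was wider on array 1. How many of all probes had no overlap between the diets was not counted. The ratios were -0.85 and -0.59, with a mean of -0.72 ± 0.18 (SD, n = 2 arrays), or 1.65-fold lower in CDD (95% interval -0.93 to -0.51, limma adjusted p = 2.51e-05).

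Cyp3a62 and Cyp3a9 did not pass the test. Cyp3a62 had 11.40 and 11.45 in CDD liver, against 11.37 and 11.36 in control liver, a log2 ratio of 0.06 ± 0.04 (95% interval -0.14 to 0.26, limma adjusted p = 0.905). That interval lies apart from the intervals of Cyp3a2 and Cyp3a18, though the difference between members was not itself tested. For Cyp3a9 (chr12:17204458-17204517), the log2 intensity was 8.58 and 8.55 in CDD liver and 8.64 and 8.73 in control liver, a ratio of -0.12 ± 0.08 (95% interval -0.32 to 0.08, adjusted p = 0.679). The diets did not overlap for these genes either, with CDD above control for Cyp3a62 and below it for Cyp3a9. Cyp3a23/3a1, a further PXR target, has a probe on the array that the rule does not take because its gene name is a transcript identifier. It was looked up after its values were seen. Its log2 intensity was 11.14 and 11.15 in CDD liver, against 11.51 and 11.58 in control liver, with no overlap and a ratio of -0.40 ± 0.03 (limma adjusted p = 0.00995). Its upstream window is the one beside that of Cyp3a2 in the sequences shown.

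**Figure D2:**
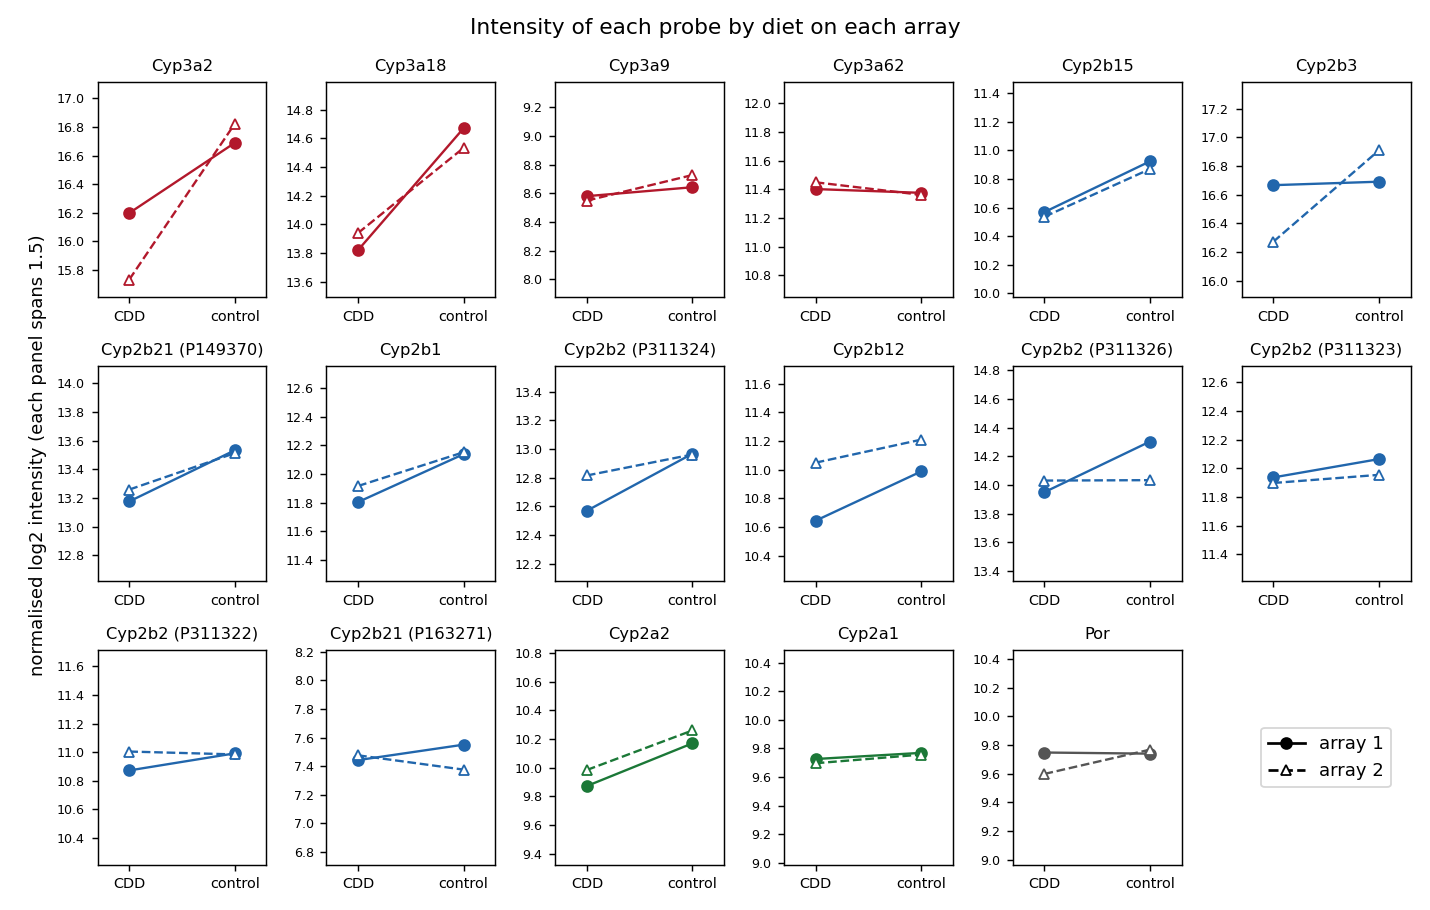
Normalised log2 intensity (y axis, each panel spanning 1.5) of each tested probe in CDD and control liver, joined within array 1 (filled circles, solid line) and array 2 (open triangles, dashed line). The lines of Cyp3a2 and Cyp3a18 are lower at CDD than at control on both arrays, those of Cyp3a62 are nearly flat, and for Cyp2b3 only the line of array 2 is steep.

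In the Cyp2b family, 10 of 11 probes were tested, for 6 genes. The median log2 ratio was -0.26 (-0.34 on array 1 and -0.15 on array 2). All 10 probes had a mean below 0, against 11198 of all 22369 probes. On each array 8 were below 0, against 27.1% of all probes and 36 of 52 probes of the other P450 genes. Differences were small, and 1 of the 10 passed as lower, against 3.63% of all probes. That probe, for Cyp2b15, had a log2 intensity of 10.57 and 10.54 in CDD liver, against 10.92 and 10.87 in control liver. Its ratios of -0.35 and -0.33 were close to each other (mean -0.34 ± 0.02, SD, n = 2 arrays), or 1.27-fold lower in CDD (95% interval -0.54 to -0.14, limma adjusted p = 0.0289). The files map it across 81844177 to 81872090 of chromosome 1. The other Cyp2b15 probe (chr1:81842066-81842125) was not well above background in either diet on either array. The Cyp2b12 probe, which also lists a Cyp2b15 transcript, did not pass (-0.25, adjusted p = 0.156). The Cyp2b15 call did not hold with an offset of 16 in the background correction (adjusted p = 0.086), on the deposited log ratio (0.404), under median centring (1) or without the filter on dim probes (0.0514).

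The phenobarbital-inducible pair did not pass the test. Cyp2b1 had 11.80 and 11.92 in CDD liver, against 12.14 and 12.15 in control liver, a log2 ratio of -0.29 ± 0.07 (95% interval -0.49 to -0.08, limma adjusted p = 0.0861). The 4 probes of Cyp2b2 did not give the same value. The one whose listed transcripts are of Cyp2b2 alone (P311324, chr1:81354719-81354778) was at -0.40 on array 1 and -0.15 on array 2, a mean of -0.27 (95% interval -0.48 to -0.06, adjusted p = 0.122). The probes that also list Cyp2b1 transcripts had means of -0.18 (P311326), -0.09 (P311323) and -0.05 (P311322), and the last of these was below 0 on array 1 and at 0.02 on array 2. None of the 4 passed, and their intervals overlapped.

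Cyp2b3, known as a constitutive liver form that phenobarbital does not induce, had a log2 intensity of 16.67 and 16.27 in CDD liver, against 16.69 and 16.91 in control liver. The CDD values were below the control values, but almost all of the gap came from array 2, with ratios of -0.02 and -0.64 (mean -0.33 ± 0.43, SD, n = 2 arrays, 95% interval -0.57 to -0.09, limma adjusted p = 0.0964). Here too, both array ratios lie outside the interval. This probe (chr1:81185388-81185447) is also among the 100 brightest, and against their median it was at -0.22 on array 1 and -0.30 on array 2. Cyp2b21 had probes that differed. The brighter one (P149370) was at -0.36 and -0.25, a mean of -0.31 (95% interval -0.51 to -0.10, adjusted p = 0.0602). The dimmer one (P163271, chr1:81670825-81670884) was at -0.11 and 0.10, a mean of 0.00 to 2 decimals (95% interval -0.21 to 0.20). The Cyp2b12 probe, for a gene known from sebaceous glands, was at -0.34 and -0.16, a mean of -0.25 (95% interval -0.46 to -0.05). Among these, limma with 1 probe a gene called Cyp2b3 (adjusted p = 0.0404) and the brighter Cyp2b21 probe (0.0441) lower, and without background correction it called that Cyp2b21 probe (0.0391). Neither was called with an intensity trend in limma's test (adjusted p = 0.396 for Cyp2b3 and 0.082 for that Cyp2b21 probe). The same held on the deposited log ratio (0.487 and 0.428). With an intensity trend on that ratio, a setting chosen after seeing the data, limma called the brighter Cyp2b21 probe (adjusted p = 0.00956) but not Cyp2b3 (0.17).

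In the Cyp2a family, Cyp2a1 and Cyp2a2 were tested and neither passed. Cyp2a2, a testosterone hydroxylase, had a log2 intensity of 9.87 and 9.98 in CDD liver, against 10.17 and 10.26 in control liver. The diets did not overlap, and the ratio of -0.29 ± 0.02 (SD, n = 2 arrays) had a 95% interval of -0.49 to -0.09 (limma adjusted p = 0.0812). It was called lower with an intensity trend in the test (adjusted p = 0.0217) and without background correction (0.0457). Cyp2a1, also a testosterone hydroxylase, had 9.73 and 9.70 in CDD liver, against 9.77 and 9.76 in control liver, a ratio of -0.05 ± 0.01 (95% interval -0.25 to 0.15, adjusted p = 0.92). Its diets did not overlap either, so with 2 values a diet a lack of overlap says little about size. The probes of this pair differ at the 9 capital positions shown. Cyp2a3, known from lung and nasal tissue (chr1:81948552-81950011), was not well above background in either diet. Cyp2ab1 (chr11:82828807-82828866) was well above background for CDD on array 1 only.

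Por, the electron donor of all these enzymes, had a log2 intensity of 9.75 and 9.60 in CDD liver, against 9.74 and 9.77 in control liver. The arrays differed in sign (0.01 and -0.17), and the mean of -0.08 ± 0.13 had a 95% interval of -0.29 to 0.12 (limma adjusted p = 0.842). Among 16 tested genes of electron transfer and heme supply to P450s, 3 were lower and none higher, with a median of 0.04, against 3.65% lower and 3.83% higher over all 18198 genes, each taken by its brightest probe. The 3 were the electron carrier cytochrome b5, Cyb5a (-0.46 ± 0.09, limma adjusted p = 0.00301), its reductase Cyb5r3 (-0.33 ± 0.16, adjusted p = 0.0462) and the heme synthesis enzyme Alad (-0.46 ± 0.01, adjusted p = 0.00293). Urod, also of heme synthesis, was at -0.18 ± 0.09 and did not pass.

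For the lists that follow, the shares over all genes, each by its brightest probe, are 3.65% lower and 3.83% higher. Of 17 tested regulators of the PXR and CAR axis, 2 were lower and none higher, with a median of -0.05. CAR itself, Nr1i3, had ratios of -0.45 and -0.49 (mean -0.47 ± 0.03, limma adjusted p = 0.00251), and the hepatic transcription factor Foxa2 had -0.50 and -0.46 (-0.48 ± 0.03, adjusted p = 0.00184). PXR, Nr1i2, was at -0.23 and -0.25 (-0.24 ± 0.02, adjusted p = 0.171), and the repressor Nr0b2 at -0.23 ± 0.23. Of 18 other known targets of these receptors, 3 were higher and 3 lower, with a median of 0.08. Among them Slco1a2, an uptake transporter, was lower (-0.70 ± 0.18, adjusted p = 3.89e-05), while the epoxide hydrolase Ephx1 (0.59 ± 0.05, adjusted p = 0.000233), the glutathione transferase Gstm1 (0.58 ± 0.10, adjusted p = 0.000266) and the glucuronosyltransferase Ugt2b1 (2.99 ± 0.21, adjusted p = 1.32e-15) were higher.

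**Figure D3:**
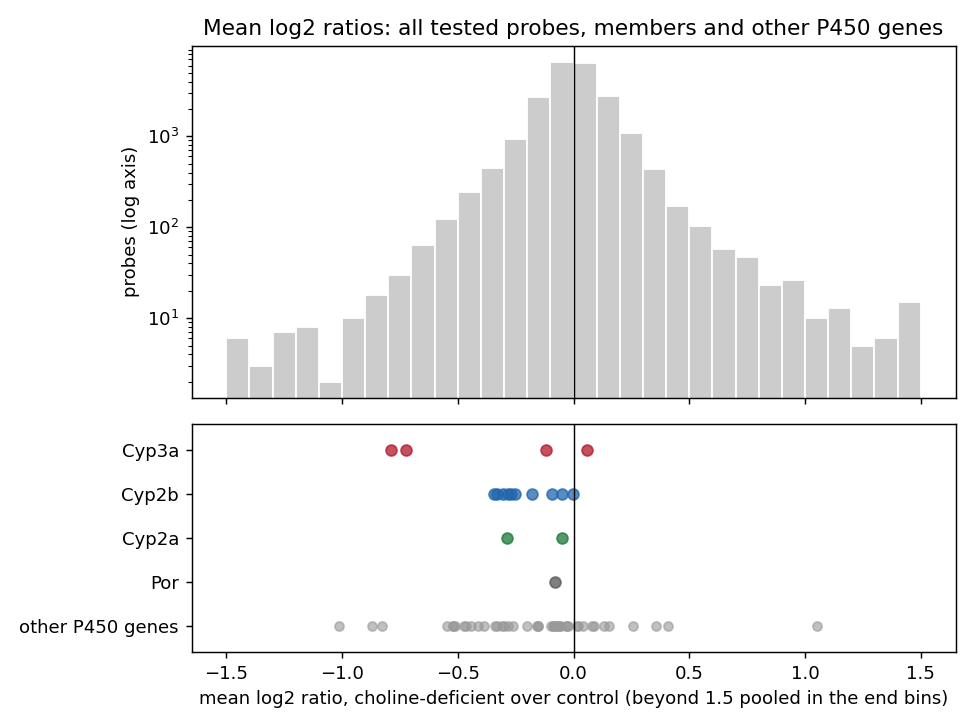
Top, number of tested probes (log axis) by mean log2 ratio of CDD over control, in bins of 0.1, with values beyond 1.5 in the end bins. Bottom, the same ratio for each tested probe of the families and for the other P450 genes by their brightest probe, where Cyp2b lies between -0.34 and 0.00 and the other P450 genes spread from -1.01 to 1.05.

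The other P450 genes of the array were counted in the same fit. Of 44 tested by their brightest probe, 14 were lower and 3 higher, with a median of -0.12, against 3.65% lower and 3.83% higher over all genes. The 13 member genes, taken the same way, gave 3 lower and none higher, with a median of -0.29. Over all tested probes the medians were closer, at -0.25 for the 17 member probes and -0.23 for the 52 probes of the other P450 genes, of which 22 were lower and 3 higher. The largest decreases among the other P450 genes were those of Cyp2c12 (-1.01 ± 0.08, limma adjusted p = 1.09e-07), Cyp1a2 (-0.87 ± 0.21, adjusted p = 2.14e-06) and Cyp17a1 (-0.83 ± 0.04, adjusted p = 2.19e-06), while the sterol demethylase Cyp51 was higher (1.05 ± 0.09, adjusted p = 6.06e-08). Of 7 Cyp2c genes, 3 were lower and none higher (median -0.31). Whether the members differ from the other P450 genes was not tested.

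Other gene lists, including markers of other cell types, were counted in the same fit, where 3.65% of all genes were lower and 3.83% higher. Most of these lists are short, so 1 call in a list says little about its cell type. Of 14 genes that are sex-biased or belong to the growth hormone axis (such as Igf1, Ghr, Stat5a and Stat5b), 8 were lower and none higher (median -0.35). The list was not split by the direction of the sex bias. The 4 with the largest absolute ratios were Bcl6, a repressor of sex-biased genes (-1.55 ± 0.19), Sult2a1 (-1.13 ± 0.21), Cyp2c12 (-1.01 ± 0.08) and the odorant-binding protein gene Obp3 (-0.69 ± 0.02). Of 8 pericentral hepatocyte markers, 4 were lower and none higher (median -0.24): Oat (-1.13 ± 0.02), Cyp1a2, Tbx3 (-0.58 ± 0.02) and the glutamine synthetase Glul (-0.46 ± 0.02). The other 4 did not pass. Rhbg (0.27 ± 0.10) and Slc1a2 (0.18 ± 0.18) were above 0 on each array, while Cyp2e1 (-0.02 ± 0.08) and Axin2 (-0.02 ± 0.13) differed in sign between the arrays. Of 9 periportal markers, 1 was higher and none lower, the urea cycle enzyme Ass1 (0.35 ± 0.13). The 9 hepatocyte markers gave 1 higher and 2 lower, and their median was 0.22 for array 1 and -0.55 for array 2. Higher in CDD liver were 4 of 11 Kupffer cell and macrophage markers, 2 of 7 stellate cell markers, 1 of 5 cholangiocyte markers and 4 of 4 proliferating cell markers, with none lower in these lists. Lower, with none higher, were 1 of 6 endothelial, 1 of 5 lymphocyte and 1 of 3 erythroid markers. The part of these groups in the lower P450 ratios was not tested.

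The ratios of Cyp3a2 and Cyp3a18, as means of both arrays, were below 0 under each setting tried, while their calls depended on the processing. Over 10 settings of signal processing, filter and test, Cyp3a2 stayed between -0.82 and -0.62 and Cyp3a18 between -0.72 and -0.55, and limma called each in 8 of the 10. Neither call held on the deposited log ratio (adjusted p = 0.287 for Cyp3a2 and 0.298 for Cyp3a18), where limma called no probe at all and 2583 had an unadjusted p under 0.05, or under median centring (adjusted p = 1 for both). Under that centring the arrays differed in sign, with Cyp3a2 at 1.03 on array 1 and -2.28 on array 2 and Cyp3a18 at 0.50 and -1.60, where the median of all tested probes was 0.62 on array 1 and -0.39 on array 2. On the deposited log ratio, Cyp3a2 was at -0.66 on array 1 and -0.97 on array 2, and Cyp3a18 at -0.81 and -0.59, so that both were at least 1.5-fold lower on each array there. Cyp3a62 was above 0 in 10 of 10 settings, several of which share its ratio.

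**Figure D4:**
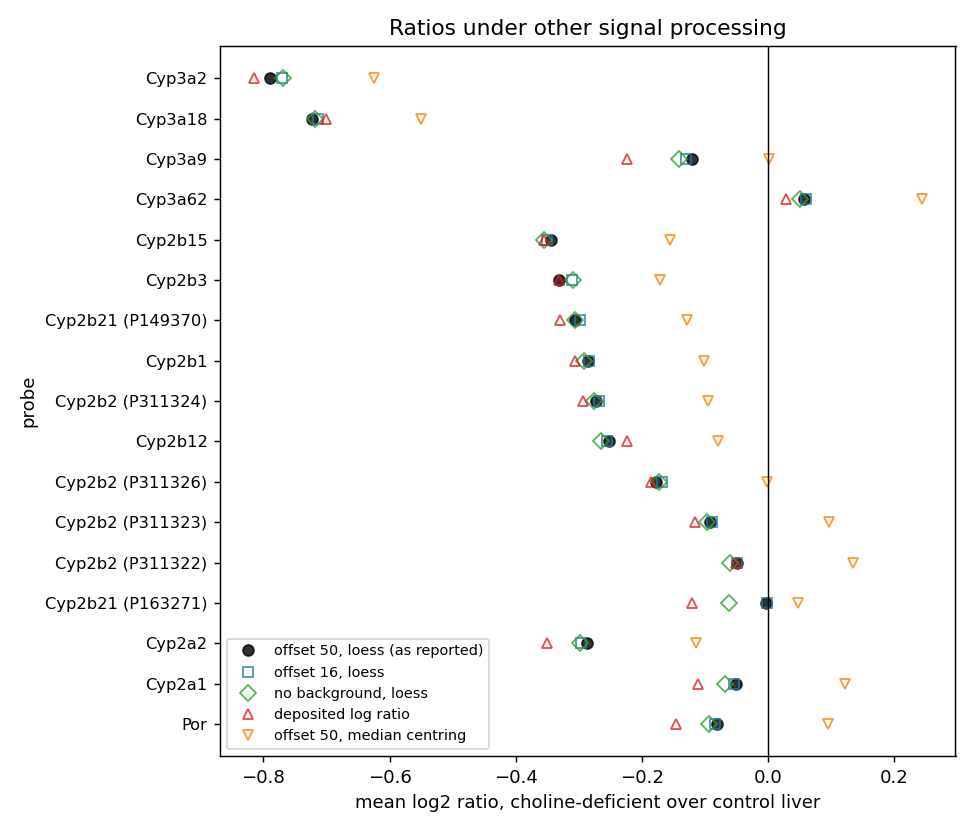
Mean log2 ratio of CDD over control (x axis) for each tested probe (rows) under 5 ways of processing the signals, each marked by its own symbol. Median centring lies to the right of the other settings for every probe, and Cyp3a2 and Cyp3a18 lie furthest to the left under each setting.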

How the data were processed

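The authors extracted the array images with Agilent Feature Extraction 9.5.3.1 per the file headers (9.5 in the submitters' processing notes). The deposited files give, for both dyes, the intensity of each spot and of its background. A deposited log10 ratio, Cy5 over Cy3, was made by the authors after background subtraction and lowess dye normalisation, per the file headers. Direction comes from the diet and dye labels of each channel.

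Mean signals were background-corrected by normexp with an offset of 50, which draws ratios of dim spots towards 0, and log2 ratios were normalised by loess within each array (limma 3.58.1, R 4.3.3). Control spots had weight 0, outlier spots were dropped, and repeated spots were averaged per probe. Probes were kept where well above background on both arrays in at least 1 diet (22369 of 41012). Ratios were turned to CDD over control and tested against 0 with lmFit and eBayes, two-sided, with 1 residual and 22.38 prior degrees of freedom, so most of the spread is pooled over probes. P-values were Benjamini-Hochberg adjusted over all kept probes. A dye effect cancels in the mean but adds to the spread. Each SD is over 2 arrays, and intervals are 95%. The procedure was tested on simulated data.

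Members and gene lists were chosen with earlier results of these data known. Every member is accounted for, and from each list up to 4 genes with the largest absolute mean ratio are named, taken by the brightest probe. Not all of these are given, and Cyp3a23/3a1 lies outside the rule. All tested pericentral markers are named. Genes are named as in the array files. Upstream sequences were matched by symbol in RefSeq (GRCr8). Alternatives were another offset, no background correction, the deposited log ratio, median centring, looser and stricter dim-probe filters, an intensity trend, 1 probe a gene and leaving out each array.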

Additional observations from a re-analysis of the deposited data

How the results depend on the processing

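The 3 calls among the members and the 813 lower and 792 higher calls over all probes depended on the processing. With an offset of 16, 536 probes were lower. With the deposited log ratio, 0 probes of the array and 0 members were called either way (2583 at an unadjusted p under 0.05), while 2 members were at least 1.5-fold lower on each array. With an intensity trend added to that fit, a setting chosen after seeing the data, 1326 probes were higher and 1518 lower, 7 members were lower and 2 members were at least 1.5-fold lower on each array. The 7 were the probes of Cyp3a2, Cyp3a18, Cyp2a2 and Cyp2b1, the tested Cyp2b15 probe, the brighter Cyp2b21 probe and P311324 of Cyp2b2. With median centring, 0 probes and 0 members were called (26 at an unadjusted p under 0.05), 0 members were 1.5-fold lower on each array and the member median was -0.079, or -0.16 relative to all probes. Without background correction 5 members were lower, beside 1022 probes of the whole array. With 1 probe a gene 5 members were lower, beside 773 genes of the whole array. Without the filter on dim probes, which adds the 3 dim members, the member median was -0.15. No member was called higher in any of these settings. Leaving out 1 array at a time, 1 to 3 members were at least 1.5-fold lower and the median was -0.30 to -0.17: without array 1, Cyp3a2, Cyp3a18 and Cyp2b3 passed 1.5-fold. The share of all probes at least 1.5-fold lower was counted only for the fit as reported, so none stands beside the counts by size given here. For single members, 132 of the alternative values with a test kept their side of the threshold, 9 gained a call and 8 lost one, and no called mean ratio changed sign. The cause of these changes was not tested. No paired analysis was possible because each array already holds both diets and the ratios form 1 group. Signal near background leaves Cyp2a3, Cyp2ab1 and a Cyp2b15 probe without a value, and 2 arrays limit all else.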
